A study of Mus musculus with 6 samples.

Results

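The glutathione S-transferase (GST) family was followed through 10 named genes, Gsta1, Gsta2, Gsta3, Gsta4, Gstm1, Gstm2, Gstp1, Gstt1, Mgst1 and Mgst2, in mouse embryonic fibroblasts with and without knockdown of Ube2o, whose protein attaches ubiquitin to other proteins. The genes were listed by name, with earlier results of these data known, so their counts are a description of a list that was not chosen blind. All 10 were measured, by 19 probes of 45281 and as 10 of 20289 gene symbols. The fibroblasts came from C57BL6 embryos of day 13.5 and were made to express a short hairpin RNA (shRNA) stably. In the control the shRNA targets GFP, and in the knockdown it targets Ube2o, with 3 single-colour Illumina arrays in each group. The series' design text calls the 3 cultures per shRNA independent, without saying whether embryos or infections were separate, so p-values describe array-to-array spread that may be technical in part. All Ube2o arrays share 1 hairpin code in the labels, so a second hairpin was not compared.

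Glutathione S-transferases join the tripeptide glutathione to electrophilic compounds, which makes these more soluble and marks them for export and breakdown. The alpha (Gsta), mu (Gstm), pi (Gstp) and theta (Gstt) classes are soluble enzymes, whereas Mgst1 and Mgst2 encode integral membrane proteins of the separate MAPEG family. In the liver several GST genes are induced through the transcription factor NRF2, which binds antioxidant response elements in the DNA. Alpha and mu genes lie in clusters of similar copies, so a probe for one copy may also capture RNA of another, and probe sequences were not used here to test it.

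Of the 10 genes, 7 fell with Ube2o shRNA, 0 rose and 3 did not pass the test. The falls were those of both membrane-bound genes, Mgst1 and Mgst2, all 4 alpha genes and Gstm1, while Gstm2, Gstp1 and Gstt1 did not pass. Over all genes by their brightest probe 6.86% were called, 3.95% lower and 2.91% higher. Among genes above background on all arrays of at least 1 group 13.3% were called, 7.63% lower and 5.65% higher. The balance of directions depends on the scaling, since 1217 probes were called lower and 1019 higher as reported here, and 1544 lower and 567 higher with median scaling. The median log2 change (Ube2o shRNA minus GFP shRNA) of the 10 genes was -0.80, against 0.0027 over all genes. Changes are on the log2 scale of normalized intensity, and p-values came from limma's two-sided test, adjusted by Benjamini-Hochberg across the 45281 probes and read at 0.05. A probe counts as above background where its signal passed a limit set from the dim probes of its array, at a deposited intensity between 159.5 and 179.8. RNA of whole cultures was measured, so fewer cells of a type and less RNA per cell cannot be told apart.

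Ube2o itself gave deposited intensities of 1875, 1961 and 2091.5 with GFP shRNA and of 668, 851 and 650 with Ube2o shRNA (log2 change -1.45, SE 0.12, adjusted p = 3.15e-07). The median intensity of an array lay between 153 and 173.6, and between 43.1% and 44.9% of its probes were above background. All 10 fibroblast markers were above background on every array, and 1 of them, the growth factor receptor gene Pdgfra, fell. Of 8 hepatocyte markers, 0 were above background on every array and 0 were called, although GST genes are best known from liver. Of 10 macrophage and leukocyte markers 3 fell, Cd74, Aif1 and Cd14, with 2 of 3 probes called for Cd74 and 1 of 3 for Aif1. The list's summed normalized intensity was 2176 to 2519 with GFP shRNA and 1514 to 1530 with Ube2o shRNA. Cd74 had the largest change of the list (log2 change -2.17), so the sum does not stand for every marker. Lyz2 (-0.19) and Csf1r (0.028) did not pass. Ptprc, Adgre1, Cd68, Itgam and Fcer1g of that list were above background on 0 arrays. The part of such cells in the changes of the GST genes was not tested. Lpl was the 1 adipocyte marker of 5 that fell, and 0 of 8 epithelial, 0 of 6 endothelial and 0 of 3 measured erythroid markers were called.

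The upstream sequences of 6 members are shown, and of the members that did not pass Gstp1 alone is among them. RefSeq promoter windows (GRCm38.p6) matched 9 of the 10 members, all but Gsta4. The 250 bases before the listed start site were searched for TGACNNNGC, the core of the antioxidant response element, on both strands. Of all 32851 windows in the table, 10.2% hold it, as do 2 of the 11 windows of members, those of Mgst1 and Gsta3. A second pattern, TGANTCAGC, which overlaps the first where its N is C, was added after the sequences were read, so its count among members is no test. It is held by 1.02% of all windows and by 1 of members, that of Gstp1, whose match is not a match to the first pattern. In the lines that follow, capitals mark a match in Mgst1, Gsta3 and Gstp1, and in Gsta1 and Gsta2 the longest run of bases that both share. The windows run 5′ to 3′ along the strand of the gene and end at the base before the start site, at chr3:51660929-51661178 (plus strand) for Mgst2, chr6:138140277-138140526 (plus) for Mgst1, chr1:21240335-21240584 (plus) for Gsta3, chr9:78230419-78230668 (plus) for Gsta1, chr9:78347146-78347395 (minus) for Gsta2 and chr19:4037913-4038162 (minus) for Gstp1.
Mgst2: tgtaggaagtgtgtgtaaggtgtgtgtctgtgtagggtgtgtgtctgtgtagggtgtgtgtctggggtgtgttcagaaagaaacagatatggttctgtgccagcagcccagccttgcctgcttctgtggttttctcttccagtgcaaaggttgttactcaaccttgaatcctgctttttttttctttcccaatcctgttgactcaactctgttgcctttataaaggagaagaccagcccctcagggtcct
Mgst1: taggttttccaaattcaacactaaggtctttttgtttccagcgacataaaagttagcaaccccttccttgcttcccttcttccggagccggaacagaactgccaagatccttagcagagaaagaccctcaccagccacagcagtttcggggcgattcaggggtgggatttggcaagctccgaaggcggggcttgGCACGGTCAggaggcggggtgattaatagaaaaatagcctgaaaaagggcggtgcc
Gsta3: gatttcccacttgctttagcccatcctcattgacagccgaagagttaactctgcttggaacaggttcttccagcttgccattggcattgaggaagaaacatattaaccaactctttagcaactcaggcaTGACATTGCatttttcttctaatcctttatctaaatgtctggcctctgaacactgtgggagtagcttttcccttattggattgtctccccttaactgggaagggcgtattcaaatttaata
Gsta1: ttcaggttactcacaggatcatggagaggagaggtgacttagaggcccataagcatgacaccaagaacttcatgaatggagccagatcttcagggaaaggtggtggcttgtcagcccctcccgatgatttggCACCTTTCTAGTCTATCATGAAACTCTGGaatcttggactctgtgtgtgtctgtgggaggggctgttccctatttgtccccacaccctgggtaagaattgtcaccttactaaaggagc
Gsta2: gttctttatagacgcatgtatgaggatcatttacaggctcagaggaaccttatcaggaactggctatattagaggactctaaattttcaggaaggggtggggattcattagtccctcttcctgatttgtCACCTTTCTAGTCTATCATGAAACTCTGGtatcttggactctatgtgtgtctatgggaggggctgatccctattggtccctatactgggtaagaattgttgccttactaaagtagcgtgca
Gstp1: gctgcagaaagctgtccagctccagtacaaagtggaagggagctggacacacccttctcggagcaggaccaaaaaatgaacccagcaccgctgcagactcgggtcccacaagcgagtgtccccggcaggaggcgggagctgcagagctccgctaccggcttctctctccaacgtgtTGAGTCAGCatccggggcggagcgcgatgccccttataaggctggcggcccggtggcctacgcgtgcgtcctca
Mgst1 has 2 windows, and the match is in the one shown, while the other, at chr6:138141337-138141586, has none, so it depends on the start site used. The match in Mgst1 lies on the strand opposite to the gene and begins 56 bases upstream, reading TGACCGTGC on its own strand. That in Gsta3 reads TGACATTGC and begins 121 bases upstream, and that in Gstp1 reads TGAGTCAGC and begins 74 bases upstream. Mgst2, with the largest fall of the 10, has no match to either pattern in its window. The same holds for Gsta1 and Gsta2, and for Gstm1, Gstm2 and Gstt1, whose windows are not shown. Gsta1 and Gsta2, of the same cluster on chromosome 9, were identical at 184 of 239 aligned bases (77.0%), with a longest shared run of 29 bases. A match describes the letters in a window and is no evidence of binding.

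Mgst2 encodes a microsomal glutathione transferase that can also conjugate leukotriene A4, and its fall was the largest in the family. Its 1 probe gave deposited intensities of 1914, 1477 and 1749 with GFP shRNA and of 292.5, 399 and 319.5 with Ube2o shRNA. Every control array was several times brighter than every knockdown array, with no overlap. The log2 change was -2.55 (95% interval -2.83 to -2.26), a 5.84-fold lower normalized intensity (adjusted p = 1.51e-09). Of all genes, 9 had a more negative change.

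Mgst1, the membrane enzyme of the endoplasmic reticulum and outer mitochondrial membrane, has 2 probes that moved alike. The brighter gave 4871, 4445 and 4725 on the control arrays and 1245, 1685 and 1515 on the knockdown arrays, again without overlap. Its log2 change was -1.60 (95% interval -1.84 to -1.37, adjusted p = 5.31e-08), and that of the dimmer probe was -1.76 (-2.02 to -1.51). The normalized log2 intensity of the brighter probe averaged 12.1 ± 0.088 (SD, n = 3) over the control arrays and 10.5 ± 0.052 (SD, n = 3) over the knockdown arrays.

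**Figure D1:**
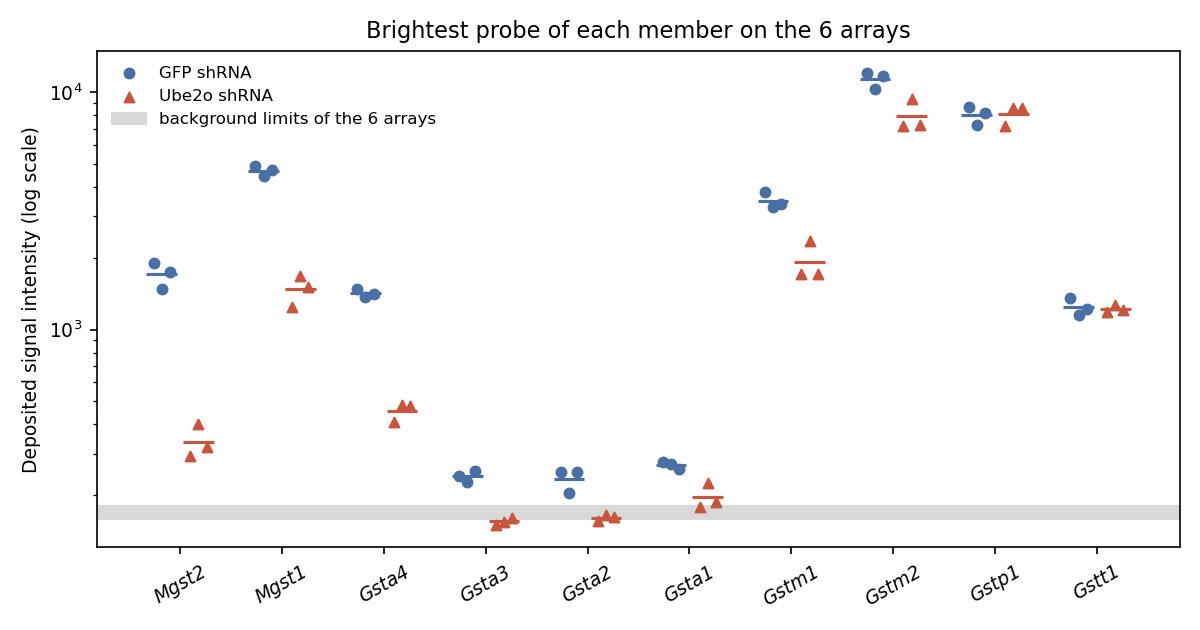
Deposited signal intensity (log axis) of the brightest probe of each of the 10 genes on the 3 GFP shRNA arrays (circles) and the 3 Ube2o shRNA arrays (triangles), with the mean of each group as a line and the range of the background limits of the 6 arrays in grey. Mgst2, Mgst1 and Gsta4 are separated most widely, the Ube2o shRNA points of Gsta2 and Gsta3 lie within or below the background limits, and the points of Gstp1 and Gstt1 overlap.

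Gsta4 encodes the alpha enzyme that prefers 4-hydroxynonenal, an aldehyde formed when lipids are peroxidised. Its 1 probe gave 1489, 1368 and 1415 with GFP shRNA and 408, 482.5 and 476 with Ube2o shRNA. The groups lay far apart and the 3 values of each were close together. The log2 change was -1.72 (95% interval -1.97 to -1.48), or 3.30-fold lower (adjusted p = 4.09e-08).

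The other 3 alpha genes were dim in these fibroblasts, and their values sit near the lower end of what the arrays resolve. Gsta3, an alpha gene known in mice for conjugating aflatoxin epoxide, gave 242, 228 and 253 on the control arrays and 150.2, 154 and 161 on the knockdown arrays. Above background on all 3 control and 0 knockdown arrays, it was at least 1.64-fold lower with Ube2o shRNA (adjusted p = 3.59e-05). Its dimmer probe was above background on 0 arrays, and its log2 change of -0.25 did not pass (adjusted p = 0.285). Gsta2 gave 251, 204 and 252 on the control arrays and 156, 166 and 161 on the knockdown arrays, and was at least 1.58-fold lower (adjusted p = 0.000758). It too was above background on 3 control and 0 knockdown arrays.

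Gsta1, the neighbour of Gsta4 and a close copy of Gsta2, was the 1 of these dim genes whose brightest probe stayed above background on all 6 arrays. That probe gave 277, 270.1 and 258 with GFP shRNA and 178, 225 and 188 with Ube2o shRNA, a log2 change of -0.59 (95% interval -0.85 to -0.33, adjusted p = 0.00816). The 2 dimmer Gsta1 probes were above background on the control arrays alone and passed as well, at least 1.33-fold and at least 1.36-fold lower. Without GFP shRNA replicate 1 the brightest probe had a log2 change of -0.52 and did not pass (adjusted p = 0.0576).

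The 2 mu genes had log2 changes nearer to 0 than Gsta4 and the membrane-bound genes, a difference that was not tested. Gstm1, a major soluble enzyme of mouse liver, gave 3811, 3276 and 3369 on the control arrays and 1716, 2352 and 1711 on the knockdown arrays. The highest knockdown array was still below the lowest control array. The log2 change was -0.79 (95% interval -1.05 to -0.52), or 1.73-fold lower (adjusted p = 0.000735). A second Gstm1 probe, above background on 1 control and 0 knockdown arrays, had a log2 change of 0.12 (adjusted p = 0.733), and averaging it with the first left Gstm1 at -0.33, short of the threshold (adjusted p = 0.061).

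Gstm2, its neighbour in the mu cluster, lay just outside the threshold with each of 3 probes. The brightest gave 12032, 10308 and 11766 with GFP shRNA and 7236, 9403 and 7274 with Ube2o shRNA, so the groups did not overlap here either. The log2 change was -0.39 (95% interval -0.63 to -0.15, adjusted p = 0.059), and those of the other probes were -0.37 and -0.41 (adjusted p = 0.0662 and 0.0544). In the authors' series matrix values the change of -0.38 passed (adjusted p = 0.00394), as it did with no background correction (-0.39, adjusted p = 0.00251).

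Gstp1, whose protein also binds the stress kinase JNK, did not pass with any of its 3 probes. The brightest gave 8678, 7288 and 8159 on the control arrays and 7188, 8563 and 8554 on the knockdown arrays, and the groups overlapped. Its log2 change was 0.16 (95% interval -0.089 to 0.40, adjusted p = 0.576), and those of the other 2 probes were 0.21 and 0.15. Gstp1 lies on chromosome 19, whose 346 genes above background on all 6 arrays had a median log2 change of 0.23. With the chromosome median subtracted the change of Gstp1 was -0.076 (adjusted p = 0.801), so its sign depends on that step.

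Gstt1, the theta enzyme known for acting on small halogenated compounds, also overlapped between groups. Its 1 probe gave 1360, 1156 and 1220.5 with GFP shRNA and 1190.5, 1266 and 1213.5 with Ube2o shRNA. The log2 change was 0.099 (95% interval -0.18 to 0.37, adjusted p = 0.791). For Gstp1 and Gstt1 the intervals do not reach the size of the fall of Gstm1, the smallest called fall among the bright genes.

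**Figure D2:**
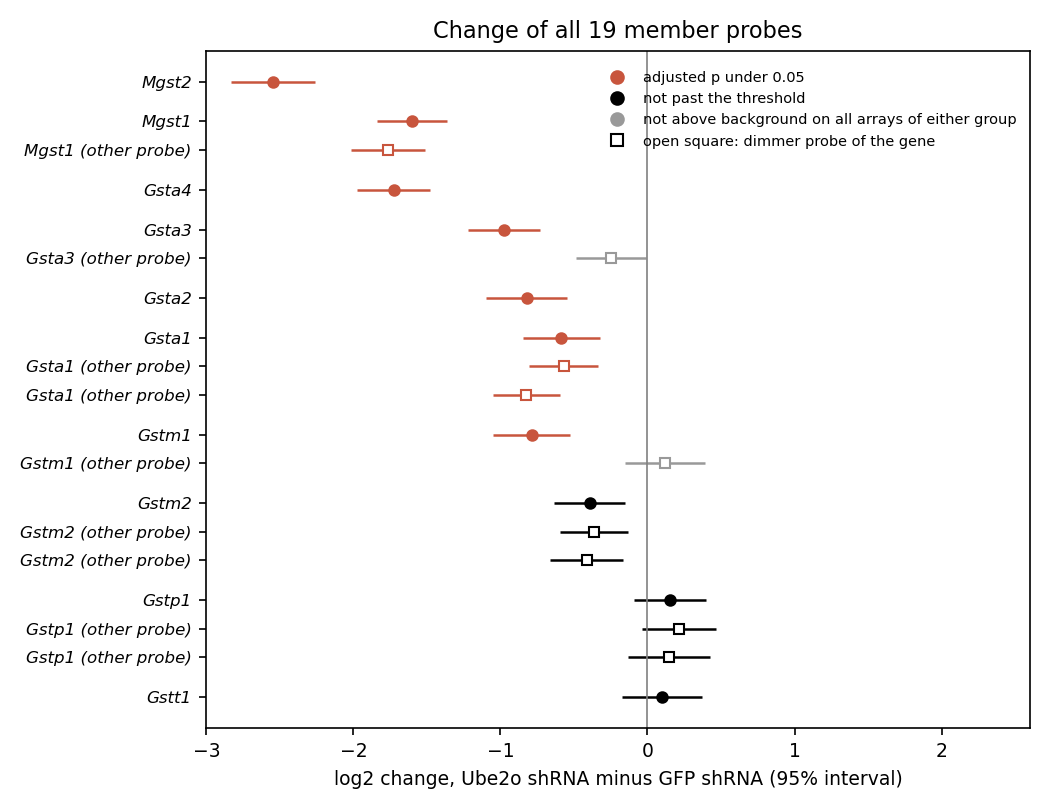
Log2 change (Ube2o shRNA minus GFP shRNA) with its 95% interval from limma for all 19 probes of the 10 genes, filled circles for the brightest probe of a gene and open squares for its other probes, coloured where the adjusted p was under 0.05. The 2 probes of Mgst1, the 3 of Gsta1, the 3 of Gstm2 and the 3 of Gstp1 lie close to each other, and the second probes of Gsta3 and Gstm1, both near background, stand apart from the first.

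Counted by probe, 10 of the 19 fell, 0 rose and 9 did not pass, where 4.94% of all probes were called, 2.69% lower and 2.25% higher. Of the 9 probes that were not the brightest of their gene, 3 fell. The brightest probes of 8 genes showed every Ube2o shRNA array below every control array, where 12.9% of all genes did. A separation of the groups in either direction was seen in 25.6% of all genes and 21.4% of all probes. All 10 genes were above background on every control array, and 8 on all 6 arrays.

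The control arrays differed among themselves in a way that the 10 genes shared. GFP shRNA replicate 1 had the highest normalized log2 intensity of the 3 control arrays for 10 of the 10 genes, by 0.080 to 0.29 above the control mean. Among 9330 genes above background on all arrays the same array was the highest control for 38.3%, with a median deviation of -0.0062. Without that array 6 of the 10 genes fell, all but Gsta1 of the 7, and the median log2 change of all 10 was -0.70. Within the Ube2o shRNA group no array led in this way, with replicates 1, 2 and 3 the highest for 3, 4 and 3 genes, although replicate 2 had the highest deposited median intensity of that group (172.5, against 153 and 167.9).

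In the order of the chromosome the mu genes form 1 cluster on chromosome 3. Among its 7 measured genes Gstm7 (log2 change -0.73, adjusted p = 0.00107), Gstm6 (-0.50, adjusted p = 0.0315) and Gstm1 fell, and Gstm5, Gstm3, Gstm2 and Gstm4 did not pass. Gstm5, the bright mu gene at one end, had a log2 change of -0.17 (95% interval -0.43 to 0.092), and Gstm4 at the other end had 0.42 (0.087 to 0.75, adjusted p = 0.163), above background on 1 control and 3 knockdown arrays. Gstm3 was above background on 0 arrays, and Gstm7 and Gstm6 on 1 and 2 of the knockdown arrays. The next 3 measured genes on each side, Ahcyl1, Csf1 and Eps8l3 before it and Ampd2, Gnat2 and Gnai3 after it, had log2 changes between -0.23 and 0.16 and 0 of the 6 were called.

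The alpha cluster of chromosome 9 holds Gsta4, Gsta1 and Gsta2, which all fell, with Omt2a and Omt2b between Gsta1 and Gsta2. Omt2a and Omt2b, known as oocyte transcripts, were above background on at most 1 array of a group, with log2 changes of -0.12 and -0.029. On either side Fbxo9, Cilk1, C920006O11Rik, Dppa5a, Ooep and Cgas had log2 changes between -0.19 and 0.18, and 0 of the 6 were called. Gsta3, the alpha gene on chromosome 1, was called lower as well, by its brighter probe, which was above background on 0 knockdown arrays. The other probe, above background on 0 arrays, was not called (log2 change -0.25). With both averaged the change of Gsta3 was -0.61 and stayed past the threshold. Whether the brighter probe also captured RNA of the copies on chromosome 9 was not tested, so a separate fall on chromosome 1 is not established.

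**Figure D3:**
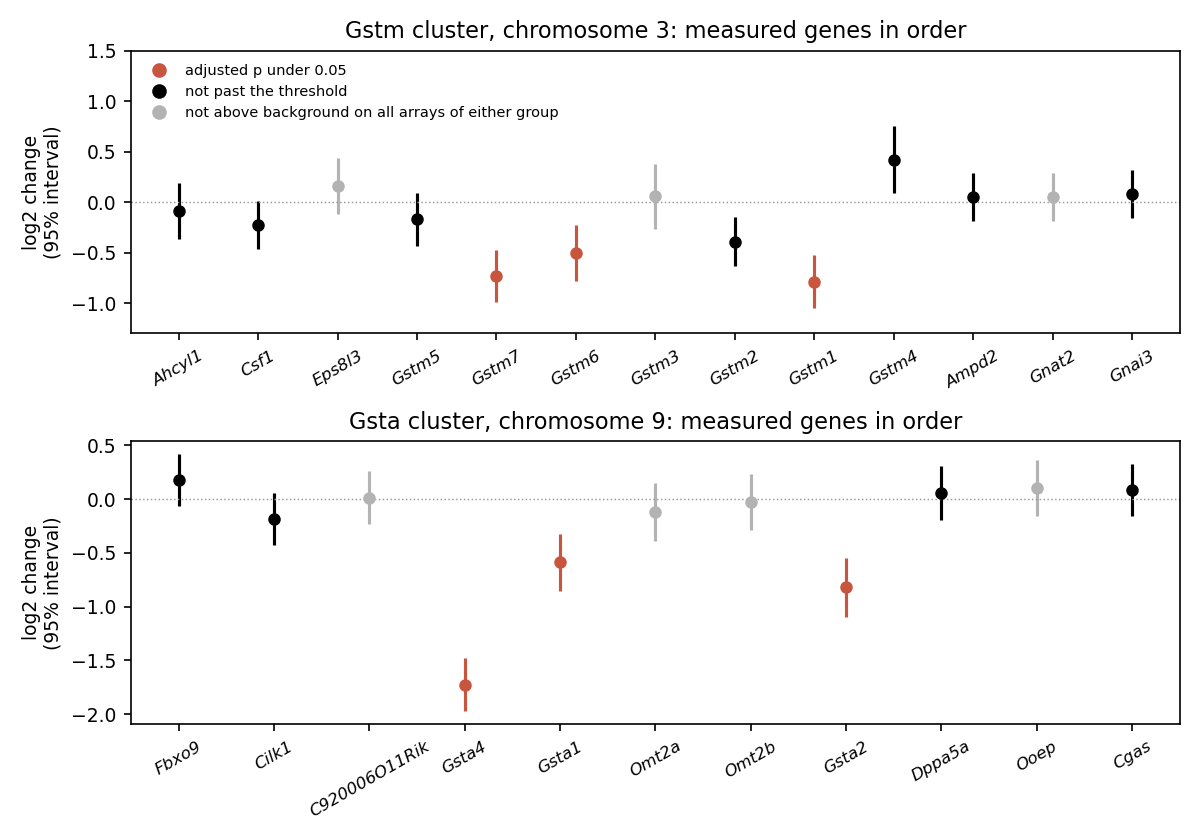
Log2 change (Ube2o shRNA minus GFP shRNA) with its 95% interval for the measured genes of the mu cluster on chromosome 3 (top) and the alpha cluster on chromosome 9 (bottom), in chromosomal order with 3 measured genes on each side, by the brightest probe. Called genes are coloured, grey points were not above background on all arrays of either group, and the flanking genes lie between -0.23 and 0.18.

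A further list of 24 measured genes held other mu, pi and theta genes, genes of other GST classes, relatives and MAPEG members. Of these 1 rose, 4 fell and 19 did not pass, with a median log2 change of 0.055. Over all genes 6.86% were called, and 13.3% of those above background on all arrays of at least 1 group. Gstk1, the kappa-class enzyme of mitochondria and peroxisomes, rose, with a log2 change of 0.94 (SE 0.13, adjusted p = 0.000139) and both of its probes called. It gave 945, 814 and 839 on the control arrays and 1314, 1615 and 1492 on the knockdown arrays, with all knockdown values above the controls. The falls were those of Gstm7, Gstm6 (outside the rule for named genes, named after its values were seen, with 1 of its 3 probes called) and the 2 leukotriene genes. Gstm7 and Ltc4s were each above background on 3 control arrays and 1 knockdown array, and Gstm6 on 3 and 2, so the sizes of these falls are limited by the background. Ltc4s, encoding leukotriene C4 synthase, had a log2 change of -0.61 (adjusted p = 0.00472). Alox5ap, encoding the protein that presents arachidonic acid to 5-lipoxygenase, had -0.74 (adjusted p = 0.00611). Ltc4s and Alox5ap are MAPEG relatives of Mgst2 that leukocytes also express, and the part of such cells in these falls was not tested. The count was 3 without GFP shRNA replicate 1, 1 higher and 2 lower. With no background correction, and with trend and robust moderation, 3 rose and 4 fell. With probes kept only if above background on all 6 arrays 3 rose and 1 fell, and Gstm7, Gstm6 and Ltc4s were not tested there.

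Mgst3, the third MAPEG transferase, was bright and had a log2 change of -0.0006 (95% interval -0.25 to 0.25, adjusted p = 0.999). Ptges, the prostaglandin E synthase of the same family, had -0.092 (adjusted p = 0.793). The omega gene Gsto1, on chromosome 19 with its median of 0.23, had 0.31 (adjusted p = 0.161). The theta gene Gstt3 had -0.21 (adjusted p = 0.406). These intervals do not reach the log2 changes of Mgst1 and Mgst2, and the differences between genes were not tested.

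Of 15 measured genes that supply glutathione, 1 rose and 1 fell. That count is close to the 13.3% called among genes above background on all arrays of at least 1 group, where 6.86% of all genes were called. Their median log2 change was -0.011, over values of both signs. The cystine transporter gene Slc7a11 had a log2 change of -0.53 (adjusted p = 0.0137), with 1 of its 5 probes called, and Gss, encoding glutathione synthetase, 0.50 (adjusted p = 0.0429), with 2 of its 4 probes called. The subunit genes of the rate-limiting ligase, Gclc and Gclm, had log2 changes of 0.24 and -0.071 and did not pass. The count of 2 became 0 without replicate 1 of either shRNA and 1 without any other array. Among 14 peroxidase, glutaredoxin and glyoxalase genes, 1 fell, the glutaredoxin gene Glrx (log2 change -0.50, adjusted p = 0.00925).

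Of 17 genes that export and process glutathione conjugates, 3 fell and 0 rose. Over all genes 3.95% were called lower, and 7.63% of those above background on all arrays of at least 1 group. Abcc3, encoding an efflux pump of conjugated anions, gave 1261, 1038 and 1206 on the control arrays and 394.5, 467 and 481 on the knockdown arrays. All its knockdown values were below the controls, with a log2 change of -1.45 (SE 0.13, adjusted p = 9.23e-07). Abcc4, a second pump of that family, had -0.55 (adjusted p = 0.00603), and Acy3, an aminoacylase that acts on mercapturic acids, -0.90 (adjusted p = 0.00099). Abcc1, another conjugate pump, was above background on all 6 arrays, but near the limits of 159.5 to 179.8. It gave 195, 176 and 192 with GFP shRNA and 172, 179 and 176 with Ube2o shRNA. Its log2 change was -0.07 (adjusted p = 0.837), at a level where a fall had little room to show.

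Of 24 NRF2 regulators and targets outside the GST family, 4 fell and 2 rose, with a median of -0.12. Calls in either direction made up 6.86% of all genes and 13.3% of those above background on all arrays of at least 1 group. The aldehyde dehydrogenase gene Aldh3a1 (log2 change -1.48, adjusted p = 1.53e-06) and the carbonyl reductase gene Cbr3 (-1.10) fell, as did Maff and Cbr1 (-0.54 and -0.49, named after their values were seen). The quinone reductase gene Nqo1 (1.04) and the heme oxygenase gene Hmox1 (0.91) rose, opposite in sign to the 7 members that fell. Nfe2l2, which encodes NRF2, had a log2 change of -0.09 (adjusted p = 0.776) and its inhibitor gene Keap1 -0.29 (adjusted p = 0.204). Of 14 xenobiotic receptor and phase I genes 0 were called, and Rxra had the smallest p (log2 change -0.18, adjusted p = 0.496).

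**Figure D4:**
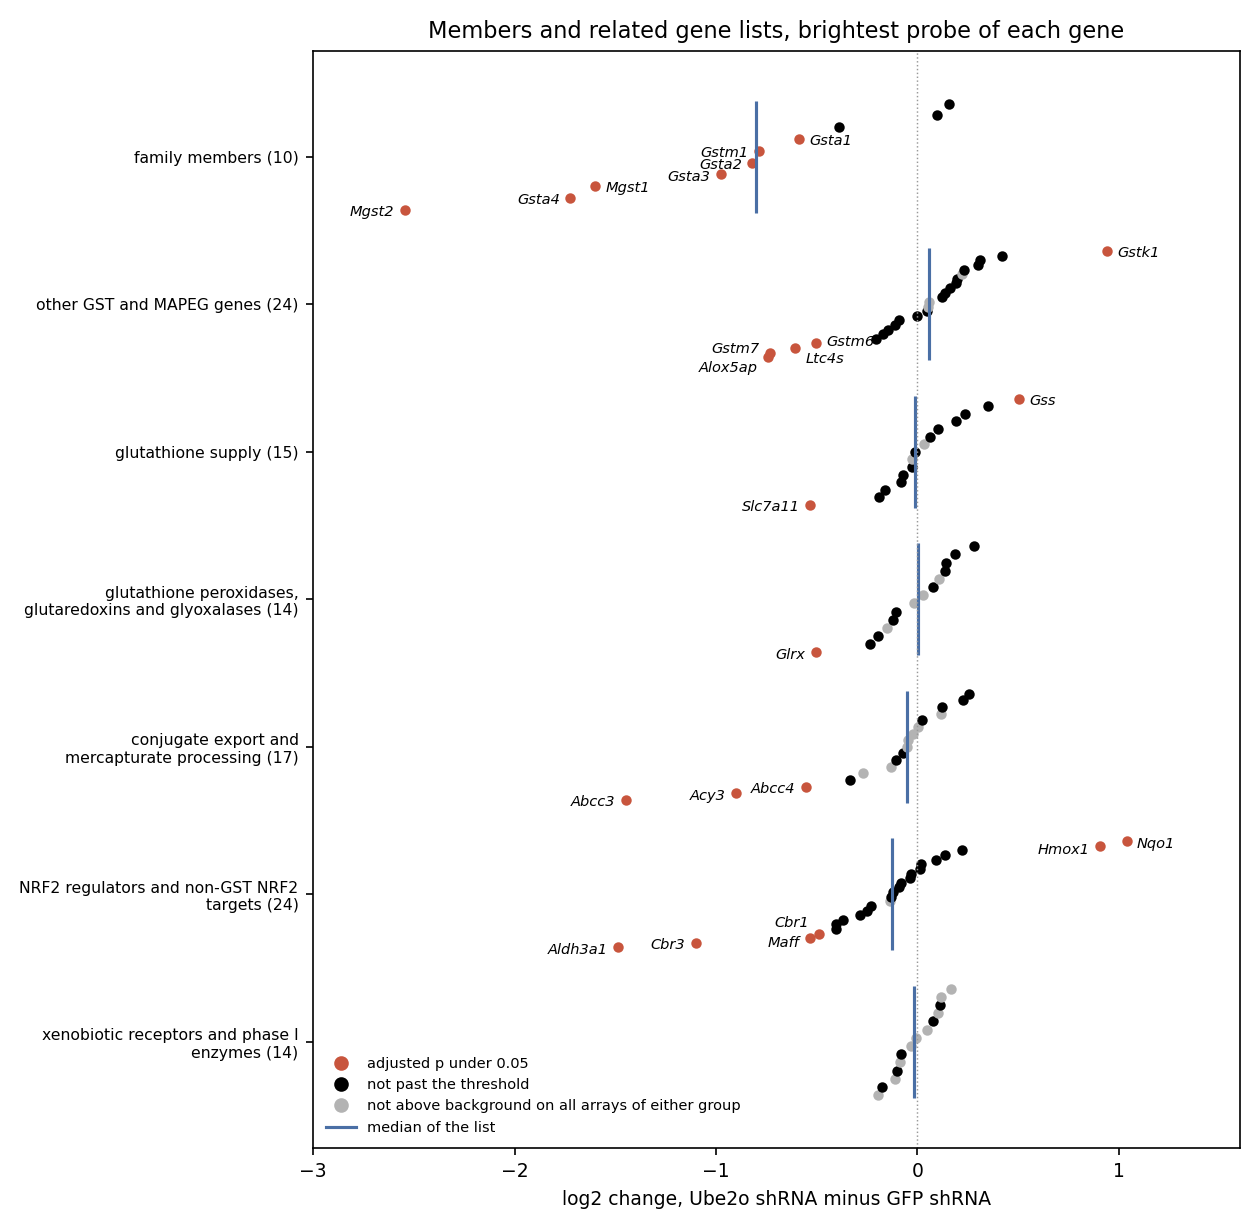
Log2 change (Ube2o shRNA minus GFP shRNA) of each gene by its brightest probe, for the 10 members and the 6 related lists, with the number of measured genes in brackets and the median of each list as a line. Called genes are coloured and named, and grey genes were not above background on all arrays of either group. The median of the members is -0.80 and those of the other lists lie between -0.12 and 0.055.

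The genes nearest to Mgst2 and to Gsta4 across the 6 arrays were found by the root mean square difference of log2 profiles centred on the control mean, over 10212 genes other than the 10 that were above background on all arrays of at least 1 group. Nearest to Mgst2 were Chil1 (difference 0.106), Enpp2 (0.156), Igfbp4 (0.165), Sirpa (0.183) and Stc1 (0.228). Nearest to Gsta4 were Il6 (0.0808), Fbln1 (0.101), Osr2 (0.103), Il1rn (0.112) and Cotl1 (0.118). With 3 arrays in each of 2 groups such likeness mostly reflects a similar size of change, and it is given as a description without a test.

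**Figure D5:**
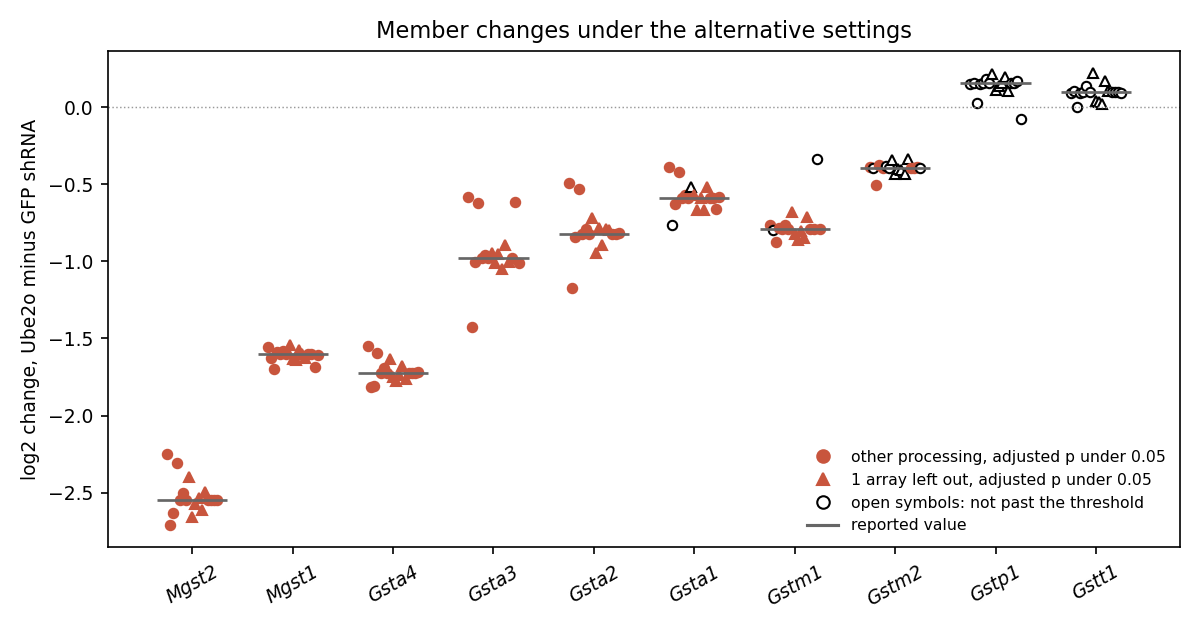
Log2 change (Ube2o shRNA minus GFP shRNA) of each of the 10 genes under the alternative settings, circles for other processing and triangles for 1 array left out, filled where the adjusted p was under 0.05, with the reported value as a line. Mgst2, Mgst1 and Gsta4 stayed between -2.71 and -1.54 and past the threshold throughout, Gsta2 and Gsta3 varied most with the background correction, and Gstm2 lay on both sides of the threshold.

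The fall of Mgst2 ranged from -2.71 to -2.25 on the log2 scale over 17 alternative settings, that of Gsta4 from -1.82 to -1.55 and that of Mgst1 from -1.70 to -1.54, all past the threshold. Gsta3 ranged from -1.42 to -0.58 and Gsta2 from -1.18 to -0.49 over 16 settings, in which both passed. Those 2 genes were not tested where probes had to be above background on all 6 arrays. The 10 genes held 5 to 8 falls and 0 rises under these settings.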

How the data were processed

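The members and related lists were chosen with earlier results of these data known. Probe intensity on a linear scale, not normalized between arrays, was deposited with a series matrix of log2 values whose sorted columns differ by at most 0.001, as after quantile normalization. How the scanner data were summarised or background-corrected is not given in the sources used here. Per the labels' protocols, RNeasy RNA was amplified to biotinylated cRNA with the Illumina TotalPrep kit. A characteristic of the Ube2o arrays says siRNA, and the shRNA of the titles was followed.

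The intensity was corrected by saddle-point normexp (offset 50), quantile normalized and put on the log2 scale, and all 45281 probes were fitted with limma 3.58.1 in R 4.3.3 (lmFit, eBayes, Benjamini-Hochberg). The offset compresses changes of dim genes. The background of an array was taken from the mode of its log2 signal and the spread below it, and a probe with p under 0.05 in it was above background. A gene above background on 0 arrays of a group has a bound ("at least N-fold"): the bright group's mean against the dim group's mean of, per array, the higher of the lowest value above background and the probe's own. Symbols come from the platform annotation, updated through RefSeq (GRCm38.p6), with 1 symbol for 35784 probes and none for 9497. Each gene is shown by its brightest probe. The fit was tested on simulated data with independent noise of equal spread and changes placed in the brighter probes only. Falls of dim genes and deviations shared within an array were therefore not covered. Every member was described, with up to 4 called genes of each related list by p, or the 1 with the smallest p. Named outside this rule were Gstm6, Maff and Cbr1. So were Mgst3, Ptges, Gsto1, Gstt3, Gclc, Gclm, Abcc1, Nfe2l2 and Keap1, which did not pass and were not chosen by p. The number of arrays limits the precision.

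Alternatives covered the background correction, scaling, series matrix values, moderation, array weights, a replicate block, leaving out each array, filters on background, averaging of probes and subtraction of the chromosome median.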

Additional observations from a re-analysis of the deposited data

How the results depend on the processing

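With 3 arrays a group and signals near background for Gsta1, Gsta2 and Gsta3, the sizes of those falls are limited by the background correction. The directions of 8 members were the same under all settings run for them, the exceptions being Gstp1, at -0.076 on the log2 scale with the chromosome median subtracted, and Gstt1, at -0.00027 with median scaling, neither past the threshold in any setting. With the offset of 16 Gsta1 (log2 change -0.76) and Gstm1 (-0.80) did not pass, nor did Gstm1 with probes averaged (-0.33). Gstm2 passed with no background correction (-0.39), median scaling (-0.50), the series matrix values (-0.38), trend and robust moderation (-0.39), both background filters (-0.39) and probes averaged (-0.39). The probes called in all were 3966 with no background correction, 584 with the offset of 16 (405 lower and 179 higher), 3941 from the series matrix, 3505 after filtering on 3 arrays and 3679 after filtering on 6. With the offset of 16 the related lists had 3 calls among other GST and MAPEG genes, 0 in glutathione supply, 0 among peroxidases and glutaredoxins and 1 in conjugate export. Glutathione supply had 1 call with median scaling and with array weights and 0 with probes averaged. Peroxidases and glutaredoxins had 2 with no background correction, in the series matrix values, with trend and robust moderation and with the filter on 6 arrays. The causes were not tested.

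Leaving out 1 array gave 1445 to 1682 called probes (1445 without GFP shRNA replicate 1), 6 or 7 called members, 9 to 11 called member probes, and log2 changes of -0.66 to -0.52 for Gsta1. It gave 3 to 5 calls among other GST and MAPEG genes and 0 to 1 in glutathione supply. Same-numbered arrays of the 2 groups had correlations of their deviations of 0.026, -0.118 and 0.0795, and differently numbered arrays -0.137 to 0.103. These values give no sign that the numbers pair the samples, and cannot settle it. With the replicate block 2139 probes and 7 members were called, and no member changed its call.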
